A study of Saccharomyces cerevisiae with 12 samples.

Results

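Aminoacyl-tRNA synthetases join each amino acid to the tRNAs that carry it to the ribosome. They fall into a pair of unrelated structural classes, class I and class II. In budding yeast the cytosol and the mitochondria are served by largely separate sets of nuclear genes, although several genes make both forms of an enzyme from alternative starts. The genes described here are 36 of the 6347 features in the deposited table of mRNA levels, found by gene name. They are 16 genes for enzymes of the cytosol, 5 genes (*ALA1*, *GRS1*, *HTS1*, *VAS1* and *YNL247W*) that supply both compartments, the cofactor gene *ARC1*, and 14 genes for enzymes of the mitochondria. All 36 were found, had a locus in RefSeq's annotation of build R64, and passed the filter of a mean of 1 RPKM (reads scaled by gene length and library size).

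Both strains were *Saccharomyces cerevisiae* D452-2 with the plasmid pRS316, which carried cdt-1, a cellodextrin transporter gene of *Neurospora crassa*. In the NC strain the transgene had its endogenous codons, and in the OPT strain it was codon-optimized. Cells were sampled in mid-exponential growth, with 3 mRNA libraries for each strain. Ribosome footprints, which make up the other 6 samples, were not analysed here, and all values are of mRNA.

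An estimated 23442200 to 43160800 reads lay behind each library. The 36 genes held between 506 and 32339 estimated reads in any library, and at the fewest reads the counting error alone was 4.45%. For cdt-1, each version was listed at 0 in the strain that lacks it, the endogenous one in 3 OPT and the optimized one in 3 NC libraries. Of the mating-type genes, *MF(ALPHA)1*, a pheromone gene of alpha cells, averaged 3581 ± 277 RPKM (SD) over the 3 NC libraries and 1737 ± 31.8 over the 3 OPT libraries (log2 fold change -1.04, limma adjusted p = 0.00103), and *STE3*, a receptor gene of alpha cells, also fell (-0.73, adjusted p = 0.00724). *MF(ALPHA)2*, also of alpha cells, overlapped between strains (-0.20, limma adjusted p = 0.342). *MFA1*, a pheromone gene of a cells, stood between 11.1 and 18.2 RPKM. In *MFA1* (0.40, limma adjusted p = 0.0603) and *STE2*, also of a cells (0.27, 0.0563), each OPT library lay above each NC library, without passing. That order held in 13.1% of all features. *MFA2*, of a cells, overlapped (0.23, limma adjusted p = 0.431). The labels give no mating type. Replicates are described as biological by the design text, with no more on their origin.

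The synthetase genes fell into separate ranges of mRNA level. RPKM is scaled by gene length, so levels can be set beside each other across genes. The 22 genes of the cytosolic and shared set had mean levels of 65.5 to 448 RPKM with a median of 168, and the 14 mitochondrial genes had means of 14.3 to 30.7 with a median of 20.8 RPKM; the first median was 8.06-fold the second. No library bridged the gap, since the lowest single value of the cytosolic and shared set was 54.1 RPKM and the highest mitochondrial value was 34.0. *KRS1*, the lysyl-tRNA synthetase (chromosome IV, 525440 to 527215 in build R64), was the most abundant at 579, 493 and 431 RPKM in NC replicates 1, 2 and 3 and 370, 438 and 381 in OPT replicates 1, 2 and 3, with no overlap with *TYS1*, the next in order. *GLN4*, the glutaminyl-tRNA synthetase and the lowest of the cytosolic set, stood at 76.4, 70.5 and 54.1 in NC and 63.0, 68.3 and 61.1 in OPT. At the bottom lay *ISM1*, the mitochondrial isoleucyl-tRNA synthetase, at 13.44, 14.51 and 14.05 in NC and 15.03, 14.43 and 14.11 in OPT. It overlapped with its neighbour in the order, *MSE1* for glutamate, at 14.7 to 15.6 RPKM. Of the 35 neighbouring pairs in the order of mean levels, 3 did not overlap over the 6 libraries: *KRS1* and *TYS1*, *GLN4* and *MSW1* across the gap between the sets, and *MST1* and *MSM1*.

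**Figure D1:**
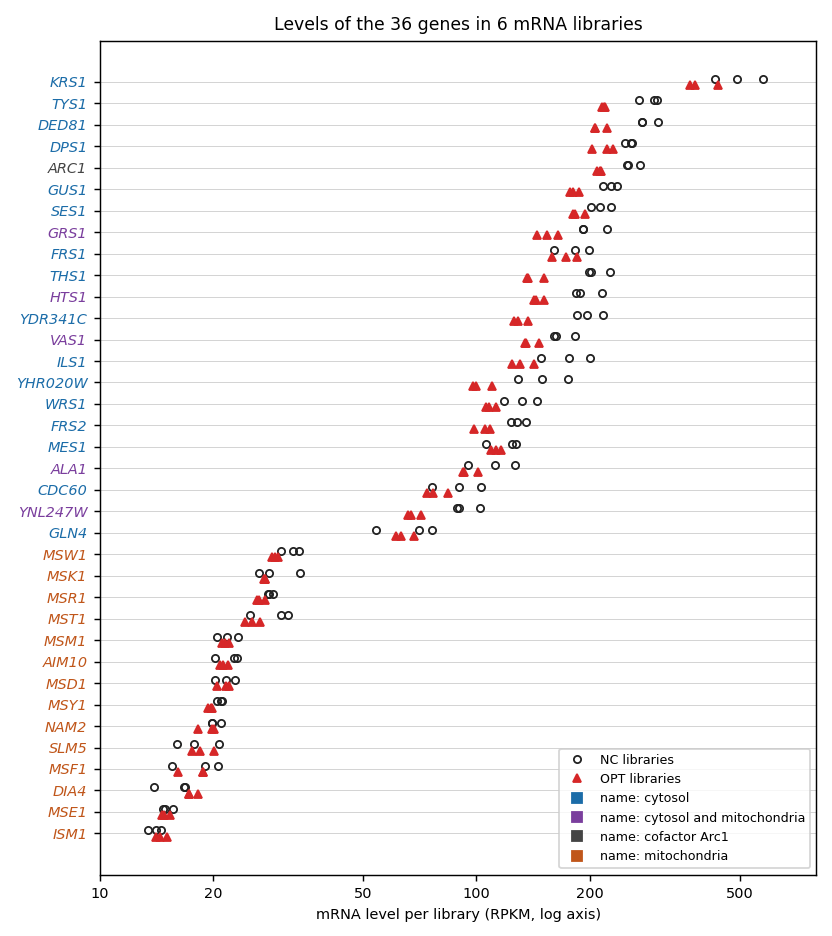
mRNA level (RPKM, log axis) of each of the 36 genes in the 3 NC libraries (open circles) and the 3 OPT libraries (triangles), ordered by mean level; the colour of a name gives the compartment its enzyme serves. The mitochondrial genes all lie at or below 34.0 RPKM and the others at or above 54.1.

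Between the strains, 12 of the 36 genes were lower in OPT and none was higher (limma on log2(RPKM + 1) over 5982 yeast features, adjusted p under 0.05 by Benjamini-Hochberg). All 12 belonged to the cytosolic and shared set of 22. Over all features tested, 19.1% were called, 13.8% as lower and 5.38% as higher in OPT, and among features of at least 50 RPKM, where all 22 lie, 19.3% were called lower. Calls over all features numbered 322 higher and 823 lower on the deposited scale, 471 higher and 491 lower with equal library medians, and 420 higher and 602 lower with quantile normalization. RPKM are shares of a library, so a smaller share and less mRNA per cell cannot be told apart. No member above 0 had an unadjusted p under 0.05. The median log2 fold change, OPT minus NC, was -0.31 in that set, against -0.06 for all features and -0.09 for those of at least 50 RPKM. Each of the 22 had a log2 fold change below 0, from -0.61 to -0.05, and in 16 of them the 3 OPT libraries lay below the 3 NC libraries, which held for 27.6% of all features. Summed over the set, levels came to 4623, 4181 and 3950 RPKM in NC and 3254, 3536 and 3328 in OPT. Their means were 4251 ± 342 and 3373 ± 146 (SD, n = 3). Each sum in NC was higher than each in OPT.

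None of the 14 mitochondrial genes passed the test in either direction. Among all features of 10 to 50 RPKM, 8.89% were called lower at the same adjusted p, and with 14 genes a count of 0 is near that share. No mitochondrial gene had an unadjusted p under 0.05 either, for which the share over all features was not taken. The median log2 fold change of the 14 genes was -0.04, with 11 genes below 0 and 3 above. Summed levels were 290, 316 and 314 RPKM in NC and 299, 290 and 297 in OPT, so the strains overlapped. The standard errors of their log2 fold changes were 0.06 to 0.12, beside 0.06 to 0.13 in the cytosolic and shared set. Of the 14 separate 95% intervals (limma, unadjusted), the lowest bound was -0.40, for *MST1*, and the highest 0.36, for *DIA4*. The difference between the sets was itself not tested.

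**Figure D2:**
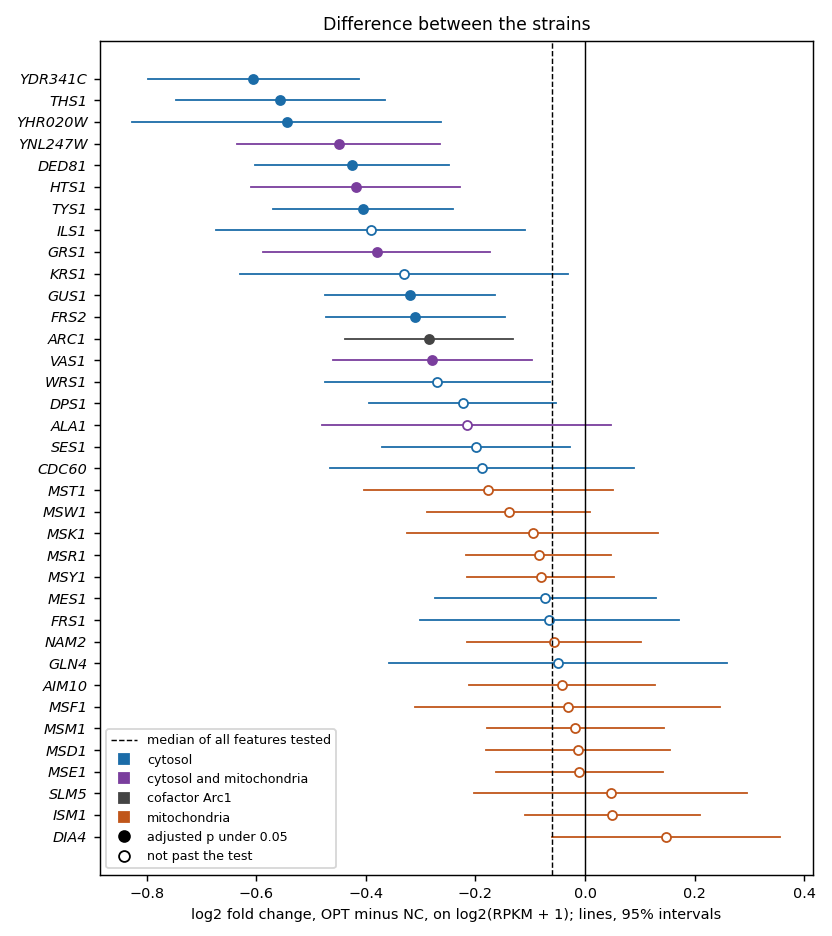
Log2 fold change, OPT minus NC, on log2(RPKM + 1) for the 36 genes, with 95% intervals from limma as lines; filled points passed at an adjusted p under 0.05, and the dashed line is the median of all features tested. The 12 filled points all belong to the cytosolic and shared set, which includes *ARC1*, from -0.61 for *YDR341C* to -0.28 for *VAS1*.

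Among enzymes of the cytosol alone, the largest differences were in the genes for arginine and threonine. *YDR341C*, the arginyl-tRNA synthetase (chromosome IV, 1151803 to 1153626), stood at 217, 197 and 185 RPKM in NC replicates 1, 2 and 3 and at 126, 137 and 129 in OPT replicates 1, 2 and 3. It fell by 34.3% (log2 fold change -0.61, standard error 0.08, limma adjusted p = 0.00506). *THS1*, the threonyl-tRNA synthetase (chromosome IX, 212499 to 214703), stood at 226, 199 and 202 in NC and 137, 151 and 136 in OPT (log2 fold change -0.56, standard error 0.08, limma adjusted p = 0.00652). In both genes the lowest NC library lay above the highest OPT library. These were the 2 of the 12 calls that held in all 14 alternative settings, with adjusted p up to 0.032 and 0.038.

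The genes for proline and asparagine are direct neighbours and fell together. *DED81*, the asparaginyl-tRNA synthetase (chromosome VIII, 141894 to 143558), and *YHR020W*, the prolyl-tRNA synthetase (143996 to 146062), are 437 nucleotides apart with no annotated gene between them, and their systematic names place them on opposite strands with their starts facing each other. *DED81* stood at 304, 275 and 275 RPKM in NC and 206, 223 and 206 in OPT (log2 fold change -0.43, standard error 0.07, limma adjusted p = 0.0115). *YHR020W* stood at 175, 149 and 129 in NC and 99.8, 110 and 98.0 in OPT (log2 fold change -0.54, standard error 0.12, limma adjusted p = 0.0231). The NC replicates of *YHR020W* spread more than those of *DED81*, while the strains overlapped in neither gene. The call of *DED81* ended without OPT replicate 1 or 3 (adjusted p up to 0.055), and that of *YHR020W* with quantile normalization, without NC replicate 2 and without each OPT library (up to 0.0871).

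*TYS1*, for tyrosine, came next to *KRS1* in mean level, at 302, 295 and 270 RPKM in NC and 218, 220 and 215 in OPT (log2 fold change -0.41, standard error 0.07, limma adjusted p = 0.0105). Its call ended without OPT replicate 2 or 3 (up to 0.0561). Other genes of this group had differences in the same direction that did not pass. *KRS1* overlapped, with its lowest NC library (431) below its highest OPT library (438), a log2 fold change of -0.33 and an adjusted p of 0.115. *ILS1*, for isoleucine, stood at 200, 176 and 148 in NC and 130, 142 and 124 in OPT (-0.39, limma adjusted p = 0.0614), without overlap. *DPS1* for aspartate (-0.22), *SES1* for serine (-0.20) and *WRS1* for tryptophan (-0.27) also had no overlap between strains, with adjusted p of 0.0713, 0.102 and 0.0707. *CDC60*, for leucine, overlapped at 76.0 to 103 RPKM in NC and 73.8 to 83.9 in OPT (-0.19, adjusted p = 0.302). *GLN4* had a log2 fold change of -0.05 with a 95% interval of -0.36 to 0.26, and it turned to 0.01 with quantile normalization or equal library medians and to 0.05 without NC replicate 1.

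Of the 5 genes whose enzymes serve both compartments, 4 fell, beside 19.3% of features of at least 50 RPKM called lower. *YNL247W*, the cysteinyl-tRNA synthetase, whose RefSeq symbol is *CRS1*, stood at 102, 89.6 and 88.5 RPKM in NC and 65.7, 71.4 and 67.2 in OPT (log2 fold change -0.45, standard error 0.08, limma adjusted p = 0.0111). *HTS1*, for histidine, stood at 215, 188 and 184 in NC and 142, 152 and 144 in OPT (-0.42, limma adjusted p = 0.0152). *GRS1*, for glycine, stood at 222, 191 and 192 in NC and 145, 165 and 154 in OPT (-0.38, limma adjusted p = 0.0268). *VAS1*, for valine, had the smallest called difference of the 12, at 182, 163 and 161 in NC and 135, 147 and 134 in OPT (-0.28, limma adjusted p = 0.0467). In all 4 the OPT libraries lay below the NC libraries. *ALA1*, for alanine, overlapped, with 127, 112 and 94.9 in NC and 92.0, 101 and 92.4 in OPT (-0.22, adjusted p = 0.216). The call of *YNL247W* ended without OPT replicate 1 (0.0527), that of *HTS1* with quantile normalization and without any OPT library (up to 0.0631), and those of *GRS1* and *VAS1* also with equal library medians (up to 0.114 and 0.166), *VAS1* without NC replicate 1 or 2 as well. *GRS2*, a paralog of *GRS1* that is not among the 36, stood at 30.5, 36.6 and 34.5 in NC and 35.9, 36.8 and 36.7 in OPT and did not pass (log2 fold change 0.11, adjusted p = 0.359); no source used here says how reads shared by the paralogs were assigned, so both are uncertain.

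Among enzymes that work as complexes, some subunit genes passed the test and others did not. Differences between subunits were not tested. Phenylalanyl-tRNA synthetase is built from an alpha subunit, encoded by *FRS2*, and a beta subunit, encoded by *FRS1*. *FRS2* stood at 136, 124 and 128 RPKM in NC and 98.3, 108 and 106 in OPT and fell (log2 fold change -0.31, standard error 0.07, limma adjusted p = 0.0242), although the call ended with quantile normalization, equal library medians and the loss of NC replicate 1 or of any OPT library (up to 0.0914). *FRS1* stood at 198, 183 and 161 in NC and 159, 173 and 185 in OPT, an overlap, with a log2 fold change of -0.07 (95% interval -0.30 to 0.17) that turned to 0.02 with quantile normalization and to 0.00 without NC replicate 1. The level of *FRS1* over that of *FRS2* came to 1.46, 1.47 and 1.26 in NC and 1.62, 1.60 and 1.75 in OPT, so every OPT library had the higher ratio. Over all pairs of features, counted in both orders, 21.4% of within-library ratios separated the strains with OPT lower and as many with OPT higher. No direction was set beforehand for this ratio, so both shares together are the ones to set beside it.

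Arc1 binds the methionyl- and glutamyl-tRNA synthetases and helps them take up their tRNAs. *ARC1* itself stood at 273, 253 and 251 RPKM in NC and 213, 214 and 209 in OPT (log2 fold change -0.29, standard error 0.06, limma adjusted p = 0.0258). *GUS1*, for glutamate, stood at 227, 217 and 236 in NC and 177, 187 and 181 in OPT (-0.32, standard error 0.07, limma adjusted p = 0.0183). *MES1*, for methionine, stood at 127, 124 and 106 in NC and 110, 116 and 113 in OPT, an overlap, with a log2 fold change of -0.07 (95% interval -0.27 to 0.13) that turned to 0.01 with quantile normalization. The level of *MES1* over that of *ARC1* came to 0.466, 0.492 and 0.421 in NC and 0.514, 0.542 and 0.540 in OPT, without overlap, whereas that of *GUS1* over *ARC1* overlapped at 0.834 to 0.939 and 0.830 to 0.874. For these ratios too no direction was set beforehand, and 21.4% of all pairs of features separate with OPT lower and as many with OPT higher. The calls of *ARC1* and *GUS1* ended with quantile normalization, with equal library medians and without any OPT library, and that of *ARC1* also without NC replicate 2 (adjusted p up to 0.107 and 0.0761). By structural class, 5 of the 10 class I genes and 6 of the 11 class II genes of the cytosolic and shared set fell. Their median log2 fold changes were -0.30 and -0.33. Among all features of at least 50 RPKM, 19.3% were called lower.

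Of the mitochondrial genes, *MSE1* stood at 15.6, 14.9 and 14.7 RPKM in NC and 15.3, 14.8 and 14.7 in OPT. *NAM2*, for leucine, stood at 19.84, 19.79 and 20.94 in NC and 19.89, 18.22 and 20.04 in OPT. *MSM1*, for methionine, stood at 21.79, 23.31 and 20.51 in NC and 21.12, 21.52 and 22.05 in OPT. In these 3 genes the strains overlapped, and the same held for 10 of the 14.

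In 3 of the 14 mitochondrial genes each OPT library lay below each NC library, as in 27.6% of all features. These were *MSW1* for tryptophan, at 30.3, 33.7 and 32.7 RPKM in NC and 29.2, 28.6 and 29.7 in OPT (log2 fold change -0.14, limma adjusted p = 0.166), *MSR1* for arginine and *MSY1* for tyrosine. *MSR1* stood at 28.04, 28.89 and 27.94 in NC and 26.04, 27.39 and 26.43 in OPT, and *MSY1* at 21.10, 20.93 and 20.45 and at 19.82, 19.72 and 19.36 (log2 fold changes -0.08 for each, limma adjusted p = 0.324 and 0.351). *DIA4*, a probable mitochondrial seryl-tRNA synthetase by its deposited description, was the one gene of the 36 with all OPT libraries above all NC libraries, a direction found in 13.1% of features. It stood at 16.7, 16.8 and 13.9 in NC and 17.3, 18.2 and 17.2 in OPT (log2 fold change 0.15, 95% interval -0.06 to 0.36, limma adjusted p = 0.28).

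The strains also overlapped in the other mitochondrial genes. *MST1*, for threonine, had the lowest log2 fold change of this set at -0.18, with 25.1, 30.2 and 31.6 RPKM in NC and 26.6, 24.3 and 25.3 in OPT (limma adjusted p = 0.239). *MSK1*, for lysine, stood at 26.5, 28.0 and 34.0 in NC and 27.5, 27.5 and 27.3 in OPT, so NC replicate 3 alone stood apart. *SLM5*, for asparagine, stood at 15.98, 20.65 and 17.75 in NC and 20.13, 17.57 and 18.38 in OPT. *MSF1*, for phenylalanine, stood at 15.6, 19.0 and 20.6 in NC and 18.8, 16.2 and 18.8 in OPT. For these 4 genes the range over NC was wider than the range over OPT. *MSD1*, for aspartate, stood at 20.2, 22.9 and 21.6 in NC and 21.6, 20.4 and 22.0 in OPT. *AIM10*, a putative proline-tRNA ligase in the deposited table, stood at 20.2, 22.7 and 23.1 in NC and 21.2, 20.9 and 21.8 in OPT.

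Mitochondria charge tRNA for glutamine by another route, in which glutamate on the tRNA is converted by an amidotransferase. None of its 3 subunit genes passed: *PET112* stood at 25.25 to 27.11 RPKM in NC and 24.69 to 25.99 in OPT (limma adjusted p = 0.583) and *GTF1* at 82.6 to 104 and 98.3 to 114 (0.364). The third gene, *HER2*, had an adjusted p of 0.909, none of the 3 had an unadjusted p under 0.05, and their median log2 fold change was -0.01.

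For 14 amino acids the cytosol and the mitochondria have separate genes, and the ratio of their levels within a library does not depend on how libraries are scaled against each other. These ratios were chosen after the single values had been seen and are given as a description. With phenylalanine counted for each cytosolic subunit there were 15 ratios, which averaged 4.11 to 17.4 in NC. In 8 of the 15 each OPT library had a lower ratio than each NC library, and in none a higher one. In the other 7 the strains overlapped. Among all pairs of features, counted in both orders, 21.4% separated with OPT lower and as many with OPT higher. No direction was set beforehand, so both shares together are the ones to set beside the 8. The ratios reuse the gene levels given above, and *MSF1* enters for each phenylalanine subunit. *YDR341C* over *MSR1*, for arginine, came to 7.75, 6.81 and 6.61 in NC and 4.82, 5.01 and 4.88 in OPT, a mean log2 difference of -0.52. *TYS1* over *MSY1*, for tyrosine, came to 14.31, 14.12 and 13.19 in NC and 10.97, 11.15 and 11.12 in OPT (-0.32). *SES1* over *DIA4*, for serine, came to 13.6, 12.6 and 14.4 in NC and 10.5, 10.6 and 10.6 in OPT (-0.36), although neither gene passed the test alone. *MES1* over *MSM1*, for methionine, overlapped at 5.83, 5.33 and 5.16 in NC and 5.19, 5.39 and 5.12 in OPT (-0.05). With 3 libraries against 3, an exact permutation test of one ratio cannot give a p below 0.1, so no test was made.

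**Figure D3:**
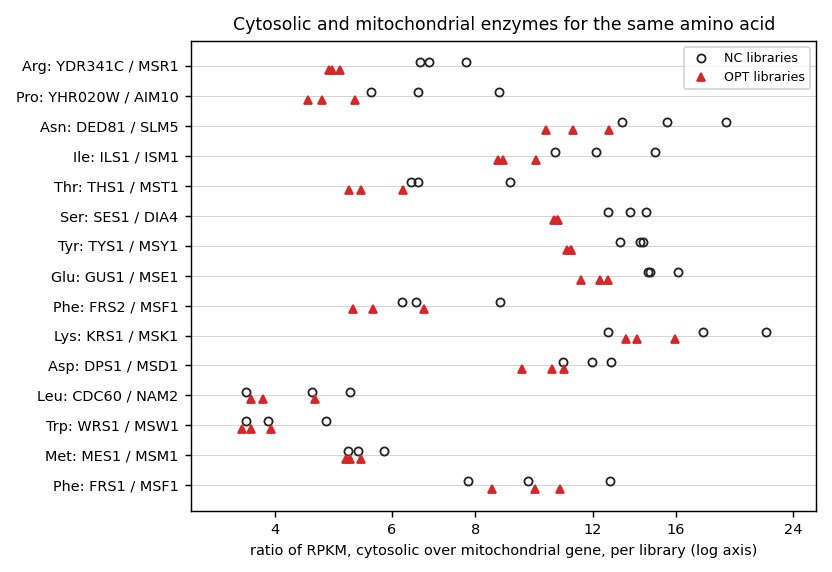
RPKM of the cytosolic gene over that of the mitochondrial gene for the same amino acid in each library (log axis), NC as open circles and OPT as triangles, ordered by the difference between strains. The strains separate in 8 of the 15 ratios, with OPT lower in each.

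The cytosolic genes also varied together within each strain. NC replicate 1 held the highest NC value in 20 of the 22 genes of the cytosolic and shared set, and NC replicate 3 the lowest in 16. Among OPT libraries, OPT replicate 2 was highest in 20 and OPT replicate 1 lowest in 12. The median member lay 0.29, 0.12 and 0.09 above its own mean over the 6 libraries in NC replicates 1, 2 and 3 and 0.21, 0.09 and 0.18 below it in OPT replicates 1, 2 and 3. Over all features tested, the median deviations were 0.03, 0.08 and -0.01 in NC and -0.02, -0.04 and -0.02 in OPT. How many of all features follow the same library order was not counted, so the order cannot be called particular to this set. The mitochondrial set ran otherwise: NC replicate 1 was lowest in 8 of its 14 genes and OPT replicate 2 in 7. Library order was thus shared by most of the 22 genes, which are not independent of each other. The count of 12 changed when any single library was left out. It was 10, 9 and 18 without NC replicates 1, 2 and 3, and 3, 4 and 3 without OPT replicates 1, 2 and 3, while the count over all features called lower was 823 with all libraries, 653, 502 and 1503 without an NC library, and 332, 227 and 339 without an OPT library. The 6 genes added without NC replicate 3 were *ILS1*, *CDC60*, *KRS1*, *SES1*, *WRS1* and *ALA1*. With equal library medians 7 of the 12 calls stood, and with quantile normalization 5.

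**Figure D4:**
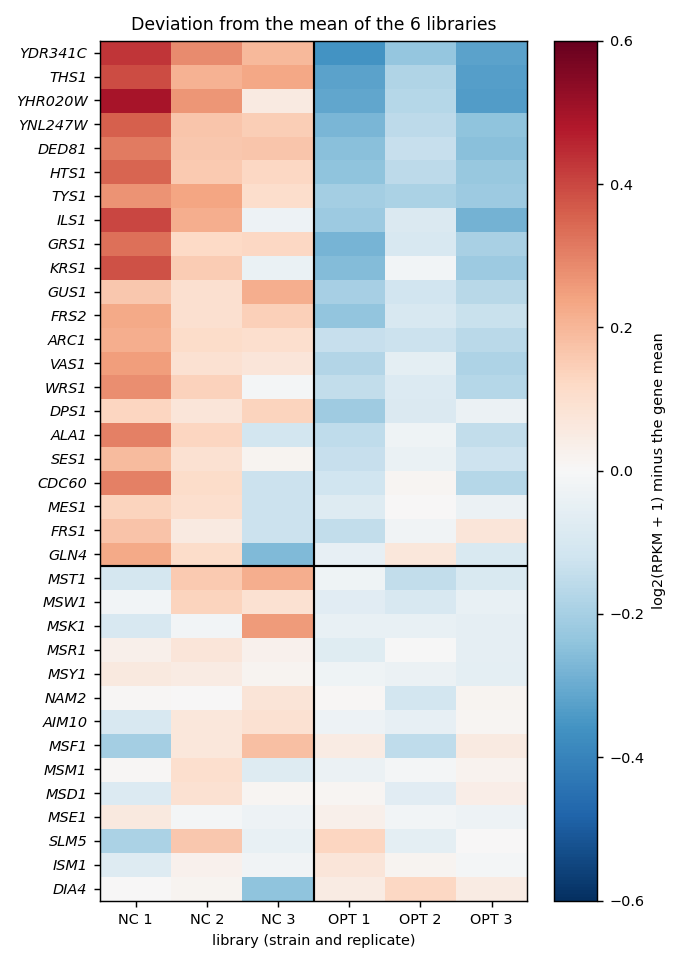
Deviation of log2(RPKM + 1) from each gene's mean over the 6 libraries, one column per library; rows above the line are the 22 genes of the cytosolic and shared set and rows below it the 14 mitochondrial genes, each ordered by fold change. Red is above and blue below the mean; NC replicate 1 has the highest NC value in 20 of the upper 22 rows.

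Of 73 other genes that make, handle or sense tRNA or serve mitochondrial translation, 9 were called, all lower in OPT on the deposited scale. That is 12.3%, near the 13.8% of all features called lower. Of 21 genes for RNA polymerase III, which transcribes tRNA genes, and its factors, 3 fell and none rose, with a median log2 fold change of -0.17. *RPC11*, a small subunit of the polymerase, stood at 180, 161 and 156 RPKM in NC and 119, 118 and 117 in OPT (-0.48, standard error 0.07, limma adjusted p = 0.00748), a call that held in all 14 alternatives. *RPC17* (-0.46, adjusted p = 0.0364) and *RPC25* (-0.41, adjusted p = 0.0483) each lost the call when any library other than NC replicate 3 was left out, and *RPC25* in 4 further settings (adjusted p up to 0.121 and 0.152). Without NC replicate 3 the list had 13 calls, and 1 without any other library. Of 20 genes for tRNA end processing, splicing and CCA addition, 4 fell and none rose, with a median of -0.18. *POP8*, a subunit of ribonuclease P, stood at 147, 121 and 130 in NC and 96.6, 91.4 and 80.4 in OPT (-0.56, limma adjusted p = 0.0129, and 0.0543 without OPT replicate 2). The other 3 were *SEN34*, *RPP1* and *RNH70*, at -0.45, -0.39 and -0.24; each lost its call when NC replicate 2 or OPT replicates 2 or 3 were dropped singly (adjusted p up to 0.0862, 0.0955 and 0.113). *RPP1* also lost it without NC replicate 1 or OPT replicate 1, and *RNH70* without OPT replicate 1, with quantile normalization and with equal library medians. The list had 3, 1 and 12 calls without NC replicates 1, 2 and 3 and 2, 0 and 1 without OPT replicates 1, 2 and 3.

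Uncharged tRNA is sensed by the kinase Gcn2, which leads to translation of the transcription factor Gcn4. Of 6 genes of this route 2 fell and none rose, beside 13.8% of all features called lower. Their median log2 fold change was -0.15. *YIH1*, an inhibitor of Gcn2 activation, stood at 132, 127 and 132 RPKM in NC and 109, 104 and 104 in OPT (-0.30, limma adjusted p = 0.0149, lost with equal library medians and without OPT replicate 2 or 3, up to 0.0839). *GCN1*, which activates Gcn2, had a log2 fold change of -0.25 and an adjusted p of 0.0478, a call lost in 9 of 14 alternatives, among them each left-out library but NC replicate 3 (up to 0.16). The mRNA of *GCN4* stood at 1319, 1215 and 945 in NC and 1515, 1563 and 1557 in OPT, without overlap and in the other direction, but did not pass (0.43, limma adjusted p = 0.0626). It passed with equal library medians, with arrayWeights and without NC replicate 1 or 3 (down to 0.0264). Gcn4 protein was not measured.

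None of the 7 genes that deliver charged tRNA to the ribosome passed, and neither did any of 7 for tRNA export and import or 8 mitochondrial translation factors (1, 1 and 0 of them had an unadjusted p under 0.05, each above 0). Their median log2 fold changes were -0.09, -0.05 and 0.02. *TEF1* and *TEF2* encode the same elongation factor from near-identical copies, so the split of reads between them is uncertain. *TEF1* stood at 8720, 7321 and 6519 RPKM in NC and 5708, 6498 and 6089 in OPT (-0.29, adjusted p = 0.164), and *TEF2* at 7856, 7329 and 7854 and at 6387, 6855 and 7058 (-0.18, adjusted p = 0.211). *YEF3*, an elongation factor named after its values were seen, stood at 1333, 914 and 800 in NC and 817, 1097 and 920 in OPT (-0.08, limma adjusted p = 0.812). NC replicate 1 and OPT replicate 2 were thus the highest of their strains, as for most cytosolic synthetases. Of the same list, *TEF1*, *EFB1* and *TEF4* had the same highest libraries, but *TEF2* had OPT replicate 3 highest. *CAM1* and *TUF1* had NC replicate 1 lowest and OPT replicate 3 highest. The export factors *MTR2* and *MEX67* and the mitochondrial factors *MEF1* and *AIM23* overlapped between strains, with log2 fold changes of -0.06, -0.05, -0.05 and 0.18 (limma adjusted p = 0.655, 0.532, 0.635 and 0.227).

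**Figure D5:**
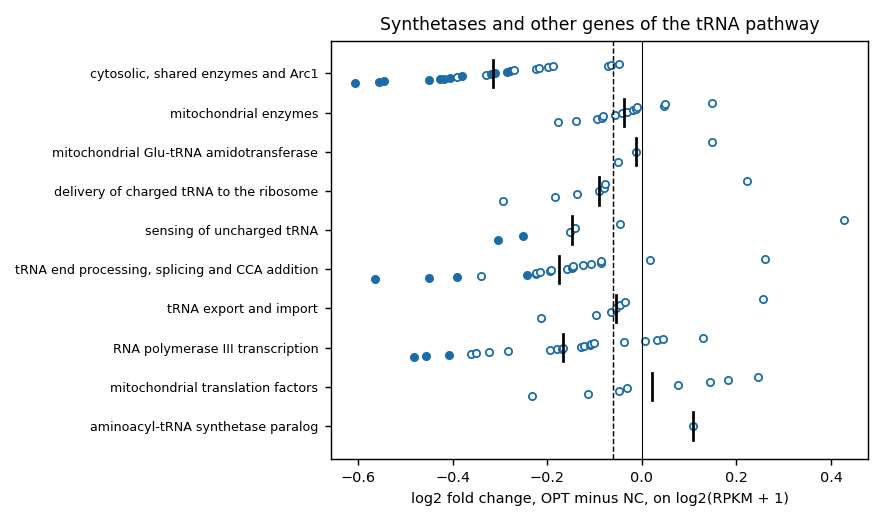
Log2 fold change, OPT minus NC, on log2(RPKM + 1) for the synthetase genes and for lists of other genes of the tRNA pathway; filled points passed at an adjusted p under 0.05, short bars are medians and the dashed line is the median of all features tested. The cytosolic and shared set has the lowest median, at -0.31.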

How the data were processed

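Per the labels' protocols, total RNA of bead-beaten cells went into TruSeq RNA libraries. The authors deposited normalized RPKM per feature and library, per the file headers. Build R64 and the tools Bowtie, TopHat and CASAVA 1.8.0 come from the submitters' processing notes; no source used here gives the counting, strand or normalization. The RPKM of a library sum to between 999285 and 999421, so a rise of abundant transcripts lowers the others.

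Here, 3 emptied lines and 1 repeated row were left out of the table, and 5992 of 6347 features matched RefSeq loci. The test of OPT against NC used limma 3.58.1 (R 4.3.3; eBayes with a trend, two-sided, no covariates) on log2(RPKM + 1) of the features whose mean reached 1 RPKM, with Benjamini-Hochberg adjustment over all of them. Fold changes on this scale understate those of low genes. P-values set the difference between the strains against the spread between 3 libraries a strain, which limma moderates with that of all features. Reads per gene were estimated from the step between low values, which came out whole within 0.15 of a read in at least 98.8% of 83 to 117 values up to 20 reads; they describe depth only and cover counting error only. The procedure was tested on simulated data with independent noise for each feature, so that test does not cover the library order shared by genes here. Tables and figures used Python 3.11.15, pandas 2.3.3 and matplotlib 3.10.9.

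The 36 genes and the pathway lists were chosen with earlier results of these data known. Named were all 36 genes and, of each list, up to 4 called genes by size of fold change or, with none called, the 2 most abundant, with GCN4 and GRS2 in any case. The remaining genes of the delivery list were named for their library order. Each list is described by counts and medians. Alternatives were a pseudocount of 0.1, a filter of 10 RPKM, no filter, quantile normalization, equal library medians, a common prior variance, arrayWeights, protein-coding features only, and each library left out.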

Additional observations from a re-analysis of the deposited data

How the results depend on the processing

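Of 12 calls lower in OPT, 2 (*YDR341C* and *THS1*) stood in all 14 alternatives, and 10 ended without at least 1 OPT library. The count of genes lower in OPT, over all 36 and over the 22 of the cytosolic and shared set alike, was 5 with quantile normalization, 7 with equal library medians, and 3 to 18 with 1 library left out. No mitochondrial gene was called, and no gene of the 36 was called higher, in any alternative. The median of the cytosolic and shared set was -0.23 with quantile normalization, -0.25 with equal library medians and -0.34 to -0.26 with 1 library left out. Over all features, 491 were lower with equal library medians, 1262 with arrayWeights and 227 to 1503 with 1 library left out, and 134 to 450 were higher. The mitochondrial median was 0.0233 with equal library medians. Calls in the lists with quantile normalization, equal library medians and 1 library left out were 1, 1 and 0 to 1 for delivery of charged tRNA, 1, 1 and 0 to 4 for sensing, and 1, 1 and 0 to 3 for export and import. Among these, the delivery call with both scalings was *CAM1* and the export call *MSN5*, and the sensing call with equal library medians was *GCN4*, all higher in OPT. The sensing call with quantile normalization was *YIH1*, lower in OPT. *MSN5* was also called higher with arrayWeights and without NC replicate 2 or 3. Sensing also had 1 call with no filter and 1 with a common prior variance. With arrayWeights there were 7 for end processing, 1 for export and 6 for RNA polymerase III, and with 1 library left out 0 to 12 for end processing and 1 to 13 for RNA polymerase III.

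Log2 fold changes that changed sign, none of them called, were with quantile normalization 0.0068 for *GLN4*, 0.0114 for *MES1*, 0.0246 for *FRS1*, 0.0051 for *MSD1* and 0.0038 for *MSE1*. With equal library medians they were 0.0111 for *GLN4*, 0.0482 for *MSD1*, 0.0501 for *MSE1*, 0.0285 for *MSF1*, 0.0425 for *MSM1*, 0.0037 for *NAM2* and 0.0181 for *AIM10*. With arrayWeights *SLM5* had -0.0105. With 1 library left out, the values ranged from -0.193 to 0.0512 for *GLN4*, -0.146 to 0.0042 for *FRS1*, -0.0572 to 0.0298 for *MSD1*, -0.0280 to 0.0159 for *MSE1*, -0.142 to 0.0512 for *MSF1*, -0.167 to 0.0081 for *MSK1*, -0.0612 to 0.0271 for *MSM1* and -0.0350 to 0.140 for *SLM5*. Causes of these differences were not tested. No paired analysis was possible because the labels give the mRNA libraries no replicate numbers shared between strains. A planned search for a promoter motif, with both its alternatives, was not run for lack of sequences here. Mitochondrial genes had 506 to 2404 estimated reads a library.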
